A study of Mus musculus with 6 samples.

Results

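Mesenchymal stromal cells of the bone marrow are recognised by a small set of surface proteins, and 10 genes that encode such proteins were followed in Lewis lung carcinoma (LLC) cells, an established mouse lung cancer line. The genes were chosen by symbol: Thy1, Eng, Nt5e, Ly6a, Vcam1, Icam1, Mcam, Alcam, Cd34 and Lepr. All 10 were among the 18182 genes of the deposited files. The LLC cells carried red fluorescent protein (LLC-RFP) and were given under the skin of wild type C57BL/6 mice, either by themselves (LLC alone, 3 libraries) or together with bone marrow-derived mesenchymal stem cells (LLC with BMSCs, 3 libraries). Fluorescent cells were then sorted out of the primary tumours by flow cytometry and sequenced, so that both groups hold the same transgenic line and the same sort. The BMSCs were a bought mouse product of C57BL/6 origin, and the red label is stated for the LLC cells only. The source label of the co-injected samples nevertheless names both LLC cells and mesenchymal stem cells. The mice used for tumour growth were females 6 weeks of age. Whether each library came from a different mouse or from pooled tumours is not given in the sources used here, so p values measure the spread between these libraries, which may be technical.

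Cultured human mesenchymal stromal cells are usually defined by the joint presence of Thy1, endoglin (Eng) and the ecto-nucleotidase Nt5e, and by the absence of blood cell markers, among which Cd34 is often counted. Whether the injected mouse BMSCs carried these markers was not measured here. In the mouse, Ly6a (stem cell antigen), Vcam1 and the leptin receptor Lepr are used to find stromal cells in the marrow itself, where these cells hold blood stem cells in their niche. None of these proteins is exclusive to stroma, because Vcam1 and Icam1 are induced by inflammatory cytokines in many cells, Ly6a by interferons, and Eng, Mcam and Cd34 are also carried by endothelium.

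Promoter sequences show where the markers that changed start, and were taken from a table of RefSeq promoters (GRCm38.p6), in which 7 of the 10 genes matched (not Thy1, Ly6a and Vcam1). Each runs from 250 bases before to 50 after the start of the gene. They were searched for 3 motifs that cytokine-regulated promoters can carry, the first 2 of them on both strands. The first was the GAS element bound by STAT proteins (TTCNNNGAA), the second the core of the interferon-stimulated response element, ISRE (GAAANNGAA), and the third an NF-kB type site (GGANNTTCC). The NF-kB type site was searched only in the direction written, in these promoters and over all mouse promoters. Icam1 is shown because it held matches to the GAS and NF-kB type motifs, given in capitals, at chr9:21015690-21015989 on the plus strand:
Icam1: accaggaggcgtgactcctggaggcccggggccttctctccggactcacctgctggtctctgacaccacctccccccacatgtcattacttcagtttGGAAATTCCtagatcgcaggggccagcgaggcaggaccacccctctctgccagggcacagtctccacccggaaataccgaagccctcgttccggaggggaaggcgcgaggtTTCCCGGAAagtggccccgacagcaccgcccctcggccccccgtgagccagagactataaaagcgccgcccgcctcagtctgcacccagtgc
The GAS match TTCCCGGAA began 42 bases before the start and the NF-kB type match GGAAATTCC 153 bases before it. Over all 32851 mouse promoters of this length, 8.3% held the GAS motif, 8.56% the ISRE core and 2.54% the NF-kB type motif. Nt5e (chr9:88327359-88327658, plus strand), Cd34 (chr1:194938571-194938870, plus strand) and Alcam (chr16:52453032-52453331, minus strand) are shown as the starts of the 3 markers with the larger changes that the table holds, and none of the 3 motifs matched in these windows:
Nt5e: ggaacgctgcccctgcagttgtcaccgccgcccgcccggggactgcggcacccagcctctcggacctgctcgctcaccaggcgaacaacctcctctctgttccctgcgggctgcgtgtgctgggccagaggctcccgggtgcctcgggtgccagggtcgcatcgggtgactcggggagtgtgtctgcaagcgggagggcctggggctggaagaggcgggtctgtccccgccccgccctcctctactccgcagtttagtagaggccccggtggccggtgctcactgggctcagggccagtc
Cd34: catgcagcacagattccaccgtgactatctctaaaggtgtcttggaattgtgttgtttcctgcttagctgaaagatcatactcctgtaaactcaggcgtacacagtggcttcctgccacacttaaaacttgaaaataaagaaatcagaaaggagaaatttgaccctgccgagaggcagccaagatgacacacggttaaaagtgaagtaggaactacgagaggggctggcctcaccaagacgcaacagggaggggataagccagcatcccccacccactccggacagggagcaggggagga
Alcam: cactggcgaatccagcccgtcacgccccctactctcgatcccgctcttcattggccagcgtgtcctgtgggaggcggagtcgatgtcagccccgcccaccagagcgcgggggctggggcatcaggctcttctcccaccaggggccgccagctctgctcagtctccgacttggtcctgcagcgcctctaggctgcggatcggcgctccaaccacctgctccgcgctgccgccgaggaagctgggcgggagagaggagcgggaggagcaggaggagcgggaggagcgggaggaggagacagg
In Lepr, which has 2 listed starts, an ISRE core match (TTCTCTTTC on the plus strand) lay 162 bases before one of them. A match is a description of letters and not evidence that a factor bound there.

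The libraries held 33476347 to 46189113 estimated counts on genes. Genes were tested with edgeR's quasi-likelihood test on the estimated counts, and 13353 genes passed its filter on low counts. Their p values were adjusted by the Benjamini-Hochberg method, and a gene is called where the adjusted p is under 0.05. The log2 fold change of LLC with BMSCs over LLC alone is written log2FC, with its standard error (SE), and values of single libraries follow the order of the replicate numbers. Levels are given in FPKM, the authors' value per transcript length and library total. The replicates were not equally far apart, since LLC alone replicates 1 and 2, and LLC with BMSCs replicates 2 and 3, differed by a chi-square of 3.97 and 2.64 per gene against 15.3 to 47 for the other pairs within a group. Most of the lung and epithelial genes that were looked up had few counts, but Krt8, Ocln and Napsa did not. Ocln had 128 to 208 counts per library and Napsa 87 to 131, and neither was called different between the groups. Which of these genes LLC cells should carry was not tested. Epcam had 0 to 4 counts and Cdh1 0 to 5 counts in the 6 libraries, Krt7, Krt19, Sftpc and Scgb1a1 had at most 3 in each, and Krt8, the keratin of simple epithelia, stood at 95.3 ± 5.98 FPKM without BMSCs and 110 ± 2.85 FPKM with them (SD, n = 3 per group).

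Most of the markers were higher in LLC cells from co-injected tumours. Of the 9 markers tested, 8 were called higher (31.5% of all tested genes were) and 0 were called lower (31.3% of all tested genes were). Mcam was not called and Thy1 did not pass the filter. Of the 9 tested, 0 had a fall even at an unadjusted p under 0.05, and none was called lower with DESeq2 or with limma on FPKM. Ly6a, Vcam1, Nt5e, Alcam and Cd34 rose by a log2FC of at least 1, against 8.65% of all tested genes, and Eng, Icam1 and Lepr by less. The median log2FC of the 9 was 1.34, against 0.0121 over all tested genes. In normalized counts, every co-injected library lay above every LLC alone library for 8 of the 9, against 36.7% of all tested genes. Cd34 passed the filter through the co-injected libraries, so the counts over tested markers are a description. With each close pair of replicates summed into 1 library, 5 markers were called higher, as Eng, Icam1 and Lepr lost their calls. That fit held fewer libraries, and the share of all genes it called higher is not given here. With Icam1 and Lepr left out because their counts were fractional in every library, 6 of 7 were called higher. This last setting was added after the values were seen. In bulk libraries, more cells that carry a transcript and more of it per cell cannot be told apart.

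**Figure D1:**
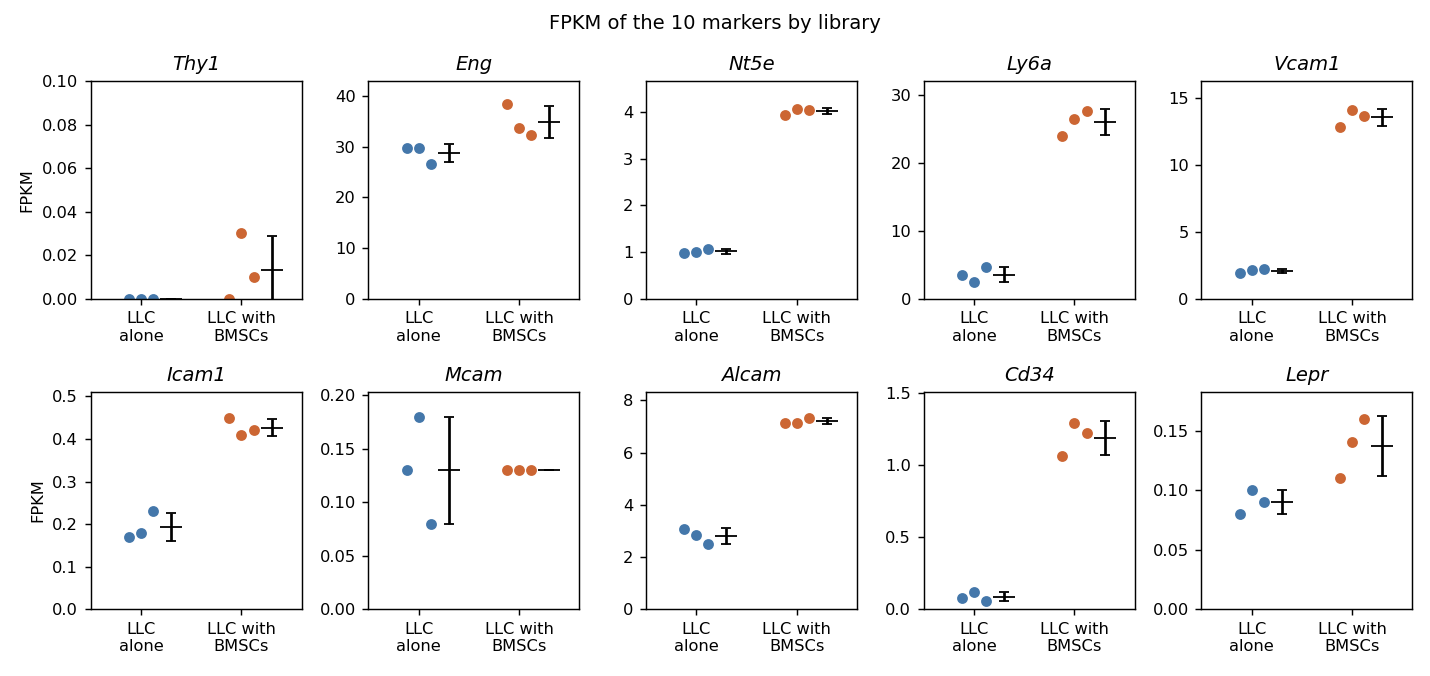
FPKM (y axis, linear from 0, scaled for each gene) of the 10 markers in the 3 libraries of LLC alone (blue) and the 3 of LLC with BMSCs (orange), with the mean and SD of each group as a black cross bar. The orange points lie above the blue ones in 8 panels, overlap them in Mcam, and in Thy1 stay at or below 0.03 FPKM.

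The 3 markers of the culture definition gave 3 different results. Thy1, a small glycoprotein held by a lipid anchor (NCBI gene 21838, chromosome 9), had 0 counts in each of the LLC alone libraries. It had 0, 2 and 1 counts in the co-injected libraries, or 0, 0.03 and 0.01 FPKM. All 6 libraries were therefore at or under the floor of 3 counts, and no fold change is given. A count of 3 in a library was worth 0.065 to 0.0896 CPM, the count scaled to the library total.

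Eng encodes endoglin, a co-receptor for TGF-beta and BMP ligands (NCBI gene 13805, chromosome 2), and was the most abundant marker in both groups. It stood at 29.74, 29.82 and 26.64 FPKM in the LLC alone libraries and at 38.44, 33.72 and 32.38 FPKM in the co-injected libraries. The groups did not overlap, but the gap between the highest LLC alone library and the lowest co-injected library was small beside the spread within the co-injected group. The log2FC of Eng was 0.26 (SE 0.08, adjusted p = 0.0275, edgeR), a 1.2-fold difference. The call was lost with LLC alone replicate 1 left out (adjusted p = 0.0516), with LLC with BMSCs replicate 1 left out (adjusted p = 0.0761) and with LLC with BMSCs replicate 2 left out (adjusted p = 0.0531). It was also lost with each library's trend over transcript length removed (log2FC 0.12, adjusted p = 0.107, edgeR). Exons of Eng overlap those of Fpgs on the opposite strand, and whether counting used the strand is not given in the sources used here.

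Nt5e, the enzyme that splits extracellular AMP into adenosine (NCBI gene 23959, chromosome 9), rose in every co-injected library. Its FPKM was 0.97, 1.01 and 1.07 in the LLC alone libraries. It was 3.95, 4.07 and 4.05 in the co-injected libraries. The groups lay far apart, with an SD of 0.0503 FPKM around 1.02 in LLC alone and of 0.0643 FPKM around 4.02 in LLC with BMSCs (n = 3 each). The log2FC was 1.96 (SE 0.08, adjusted p = 1.11e-06, edgeR), and the call held under all 16 alternatives, with values from 1.32 to 2.01.

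Ly6a encodes a lipid-anchored protein of the Ly6 family and is the marker by which mouse stem and progenitor cells are commonly sorted (NCBI gene 110454, chromosome 15). Its FPKM was 3.54, 2.45 and 4.72 in the LLC alone libraries and 23.94, 26.53 and 27.62 in the co-injected libraries. The lowest co-injected library stood well clear of the highest LLC alone library, in spite of a wide spread among the latter. Ly6a rose by 2.83 on the log2 scale (SE 0.19, adjusted p = 1.47e-05, edgeR), or 7.1-fold, and by 2.59 to 3.08 under the 16 alternatives. In FPKM it overlapped with Alcam in LLC alone and stood above it in every co-injected library. Genes of this family resemble each other, and the estimated count of Ly6a was fractional in 1 of 6 libraries, at 1042.99.

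The 4 adhesion molecules of the immunoglobulin superfamily gave 4 different sizes of change. Vcam1, which binds integrins of leukocytes and anchors blood stem cells in the marrow (NCBI gene 22329, chromosome 3), stood at 1.94, 2.13 and 2.22 FPKM in the LLC alone libraries. It stood at 12.88, 14.11 and 13.7 FPKM in the co-injected libraries. The ranges were far apart. Vcam1 rose by 2.67 on the log2 scale (SE 0.07, adjusted p = 2.43e-07, edgeR), or 6.37-fold, and by 2.23 to 2.73 under the 16 alternatives.

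Alcam, which binds itself and Cd6 on T cells (NCBI gene 11658, chromosome 16), rose less. Its FPKM was 3.09, 2.85 and 2.5 in the LLC alone libraries and 7.15, 7.12 and 7.33 in the co-injected libraries. All co-injected libraries were above all LLC alone libraries, and they were also closer to each other, with SDs of 0.114 and 0.297 FPKM. The log2FC was 1.34 (SE 0.08, adjusted p = 8e-06, edgeR), and it lay between 1.11 and 1.41 under the 16 alternatives.

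Mcam, an adhesion molecule of pericytes and endothelium that also marks stromal progenitors (NCBI gene 84004, chromosome 9), stayed near 0. It had 0.13, 0.18 and 0.08 FPKM in the LLC alone libraries, and 0.13 FPKM in each co-injected library, from 10 to 17 counts. The groups overlapped, and the log2FC of 0.02 (SE 0.31, adjusted p = 0.968, edgeR) took values from -0.26 to 0.28 under the alternatives. A difference in Mcam was not detectable at this depth.

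Icam1, the ligand of leukocyte beta-2 integrins (NCBI gene 15894, chromosome 9), was called higher as a gene, but its reads were divided with the neighbouring gene Icam4. Its FPKM was 0.17, 0.18 and 0.23 in the LLC alone libraries and 0.45, 0.41 and 0.42 in the co-injected libraries, without overlap. The log2FC was 0.65 (SE 0.16, adjusted p = 0.00912, edgeR). Its counts were fractional in 6 of 6 libraries, and Icam1 and Icam4 together summed to whole numbers in 6 of 6 (within 0.011). Those sums were 102, 68 and 124 counts in the LLC alone libraries and 91 counts in each co-injected library. In normalized counts the sum went from 100 ± 15.1 to 88.1 ± 0.396 (SD, n = 3 per group), a log2 ratio of -0.18 (exact permutation test, two-sided p = 0.3). The size and the call of the Icam1 rise therefore rest on this division.

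The transcripts to which Icam1 reads were assigned also differed between the groups. The RefSeq transcript NM_010493 had 0 counts in the 3 LLC alone libraries and 28.84, 24.28 and 25.53 counts in the co-injected libraries, and was at least 8.04-fold higher against a floor of 3 counts per library. A second transcript, assembled by the authors' pipeline, had 38.68, 28.99 and 50.84 counts in LLC alone and 41.55, 40.73 and 38.19 counts in LLC with BMSCs. Icam4, the other side of the division and an adhesion molecule of red cells, had 63.32, 39.01 and 73.16 counts in LLC alone and 20.62, 25.99 and 27.28 counts in LLC with BMSCs.

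**Figure D2:**
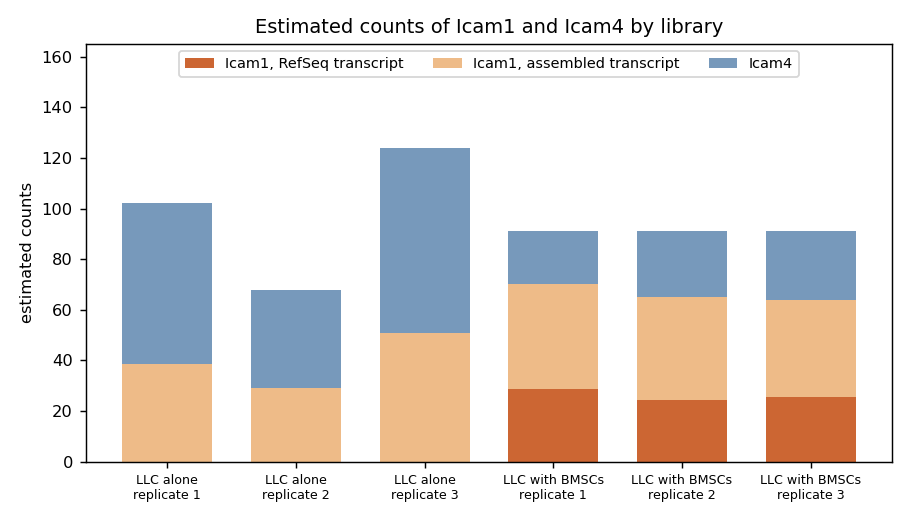
Estimated counts (y axis, linear from 0) in each of the 6 libraries, stacked from the RefSeq transcript of Icam1 (dark orange), the assembled transcript of Icam1 (light orange) and Icam4 (blue). The dark segment appears in the co-injected libraries only, at 24.28 to 28.84 counts, while the whole bars stand at 68 to 124 counts in LLC alone and at 91 in LLC with BMSCs.

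Cd34, a sialomucin of blood progenitors, endothelium and some stromal cells (NCBI gene 12490, chromosome 1), showed the largest fitted change of the 10. It had 10, 10 and 7 counts in the LLC alone libraries and 114, 137 and 129 counts in the co-injected libraries. In FPKM these were 0.08, 0.12 and 0.06 against 1.06, 1.29 and 1.22. The groups did not overlap on either scale, and Cd34 moved from the lowest place above Thy1 in order of FPKM to above Icam1. The log2FC was 3.69 (SE 0.22, adjusted p = 7.2e-06, edgeR), or 12.9-fold, and was called in all 15 alternatives that could be run. It was 1.01 on the log2(FPKM + 1) scale, which understates the change of low genes. Exons of Cd34 overlap a gene on the opposite strand, as those of Vcam1, Icam1 and Mcam do.

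Lepr, the receptor for leptin (NCBI gene 16847, chromosome 4), marks the perivascular stromal cells of adult marrow. Its FPKM was 0.08, 0.1 and 0.09 in the LLC alone libraries and 0.11, 0.14 and 0.16 in the co-injected libraries. The groups were apart by 0.11 against 0.1 FPKM at their nearest libraries. The log2FC was 0.69 (SE 0.21, adjusted p = 0.0213, edgeR). The call was lost with DESeq2 (adjusted p = 0.115), with length trends removed (adjusted p = 0.132, edgeR) and with any of 4 libraries left out, namely LLC alone replicates 1 and 2 and LLC with BMSCs replicates 2 and 3 (adjusted p = 0.0552 to 0.0824, edgeR). All counts of Lepr were fractional, from 14.69 to 38.29 per library. Leprot, the neighbouring gene of a separate trafficking protein, whose counts were whole in every library, was far more abundant and went from 24.9 ± 1.12 to 22.6 ± 0.895 FPKM (SD, n = 3 per group), a log2FC of -0.16 (adjusted p = 0.0485, edgeR).

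**Figure D3:**
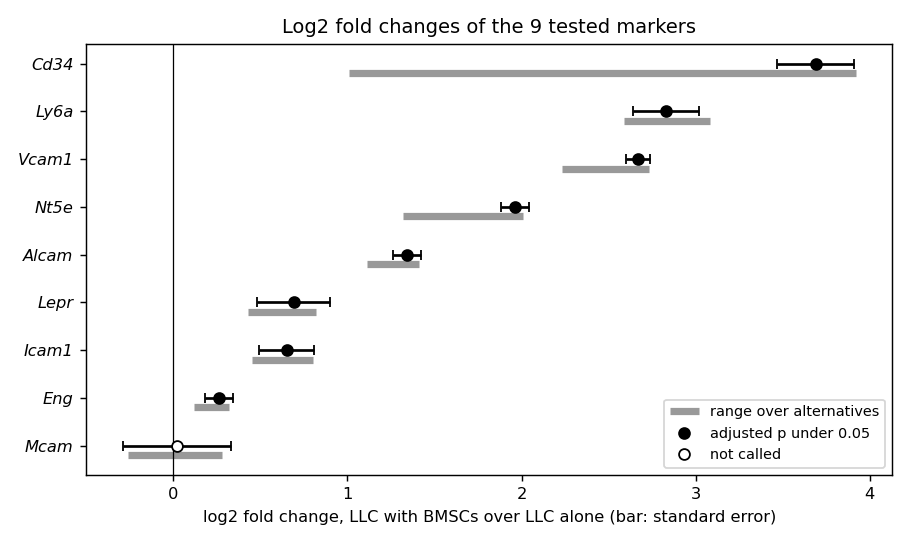
Log2 fold changes of LLC with BMSCs over LLC alone for the 9 tested markers (x axis), with the SE as black bars, filled points for an adjusted p under 0.05 and an open point for Mcam. Grey bars span the values under the other settings, which for Cd34 reach from 1.01 to 3.92 and for Mcam lie on both sides of 0.

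In order of FPKM, the LLC alone libraries placed Eng first, followed by Ly6a and Alcam, whose ranges overlapped, then Vcam1 and Nt5e. Icam1, Mcam, Lepr and Cd34 came last before Thy1, each overlapping the next down to Cd34. In LLC with BMSCs the order was Eng, Ly6a, Vcam1, Alcam, Nt5e, Cd34, Icam1, Lepr, Mcam and Thy1, and of these neighbours only Lepr and Mcam overlapped. The exact permutation test on FPKM gave a two-sided p of 0.1 for each of the 8 markers called higher, the smallest p that 3 libraries against 3 allow, 0.4 for Thy1 and 1 for Mcam.

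The files divided the 10 genes among 22 transcripts, 18 from RefSeq and 4 assembled by the pipeline. Of the 16 that passed the filter, 9 were called higher (16.6% of the 24255 tested transcripts were) and 7 were not called. The main Eng transcript NM_007932 held 71 to 79.4% of the gene's counts and was not called (log2FC 0.18, SE 0.09, adjusted p = 0.165, edgeR). The Eng transcript that was called, NM_001146350, went from 2.09 to 3.27 FPKM. For Ly6a, NM_001271419 took 63.4 to 87.2% of the counts and rose by 2.60 on the log2 scale (SE 0.32, adjusted p = 0.00273, edgeR). The Cd34 transcript NM_133654 held 82.5 to 89.9% of the co-injected counts, and the Lepr counts of these libraries all fell to NM_001122899, which was not called (adjusted p = 0.123, edgeR). Division among transcripts of one gene is estimated, and these shares carry that uncertainty.

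The partners of the markers, their ligands and receptors, were read beside them. The files held 27 of 29 listed genes and 21 passed the filter, with 12 called higher, 5 lower and 4 not called, and a median log2FC of 0.38. Over all tested genes, 31.5% were called higher and 31.3% lower. Itgam, the integrin chain of myeloid cells that binds Icam1, went from 0.00667 ± 0.0115 to 1.17 ± 0.0252 FPKM (SD, n = 3 per group). Its partner chain Itgb2 rose by 1.54 on the log2 scale (SE 0.11, adjusted p = 1.41e-05, edgeR). Adora2b, a receptor for the adenosine that Nt5e makes, rose by 1.56 (SE 0.13, adjusted p = 4.63e-05, edgeR), from 0.883 to 2.64 FPKM. The Vcam1-binding integrin chain Itga4 was not called, at 0.157 ± 0.0321 and 0.207 ± 0.0115 FPKM (SD, n = 3 per group). Gdf2, a ligand of Eng, and the Mcam ligand Lama4 had at most 3 counts in every library.

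The largest falls among the partners with at least 1 FPKM were in Lgals3, Lgals1 and Tgfb3. The galectins Lgals3 and Lgals1, lectins that bind Mcam and other glycoproteins, changed by log2FC of -1.63 and -0.43 (adjusted p = 5.54e-06 and 0.00631, edgeR). Tgfb3, which endoglin helps to bind, changed by -0.27 (adjusted p = 0.0127, edgeR). Selp and Leprot were the other partners called lower, while the receptor Tgfbr2 rose by 0.72 (adjusted p = 5.68e-05, edgeR).

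Ly6a was not alone in its family. The files held 11 of 15 listed family genes and 6 passed the filter. Ly6c1, Ly6c2 and Ly6e were higher, Ly6f and Cd59a lower, and Plaur was not called. Of all tested genes, 31.5% were called higher and 31.3% lower. Ly6e went from 124 ± 9.83 to 267 ± 14.5 FPKM (SD, n = 3 per group), a log2FC of 1.08 (SE 0.08, adjusted p = 2.18e-05, edgeR). Ly6c1, at 16.1 ± 2.24 and 54.2 ± 1.8 FPKM (SD, n = 3 per group), rose by 1.73 (SE 0.10, adjusted p = 6.84e-06, edgeR), and Ly6c2 by 5.15. The counts of Ly6c1 and Ly6c2 were fractional in 6 of 6 libraries and summed to whole numbers in 5 of them, so the values of this pair are uncertain one by one. Ly6d had at most 3 counts in every library.

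Most of the further surface genes of stromal cells rose as well. Of 18 listed, 14 were tested, with 10 called higher, 2 lower and 2 not called, and a median log2FC of 0.54. Over all tested genes, 31.5% were called higher and 31.3% lower. A log2FC of at least 1 was reached by 2 of the 14, against 8.65% of all tested genes. The hyaluronan receptor Cd44 rose from 48.9 ± 0.293 to 79.7 ± 2.8 FPKM (SD, n = 3 per group), a log2FC of 0.68, and the integrin chains Itgb1 and Itgav rose by 0.56 and 1.29 (adjusted p = 8.42e-05 and 6.24e-05, edgeR). The PDGF receptors Pdgfra and Pdgfrb, commonly used to sort stromal cells, rose by 0.47 and 0.41 (adjusted p = 0.00629 and 0.0121, edgeR) from 5.78 and 6.59 FPKM in LLC alone. Cd248 rose by 0.73. The genes called lower were Cd63, a tetraspanin of exosomes and lysosomes, with a log2FC of -0.66, and the pericyte proteoglycan Cspg4, with -2.59. Fap and Dpp4, which mark fibroblasts, had at most 3 counts in every library.

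**Figure D4:**
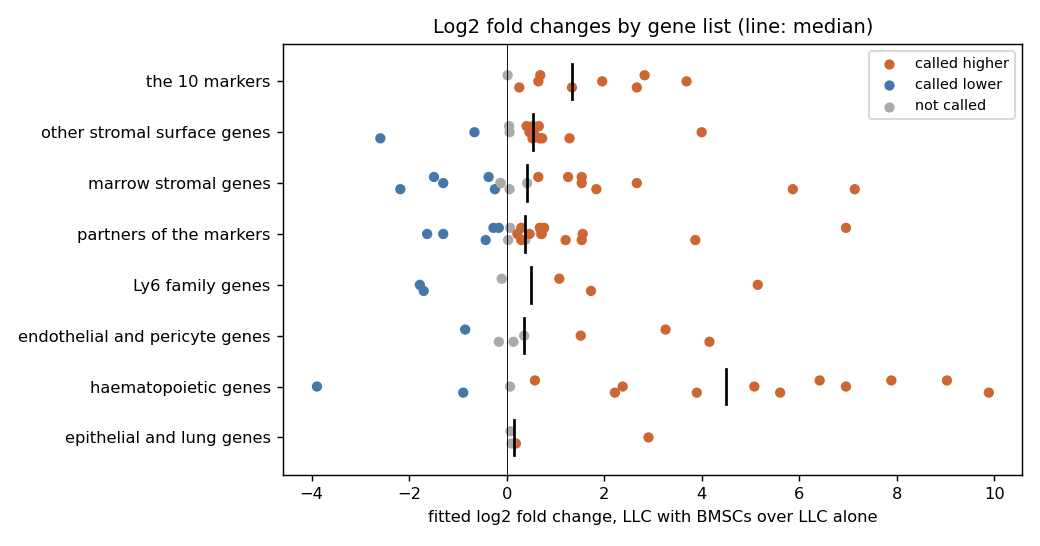
Fitted log2FC of LLC with BMSCs over LLC alone (x axis) for the tested genes of the markers and of 7 further gene lists, coloured by call, with the median of each list as a black line. The medians stand at 1.34 for the markers and 4.49 for the haematopoietic genes, the largest of the lists, and fitted values of genes at or under 3 counts in LLC alone depend on the prior count and are not bounds.

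Genes linked to marrow stromal cells, among them matrix genes, secreted factors and transcription factors, were read beside the markers, since BMSCs were injected. Of 20 marrow stromal genes, 17 were tested, with 8 called higher, 5 lower and 4 not called, and a median log2FC of 0.42. The shares over all tested genes were 31.5% higher and 31.3% lower. Their summed level was 1174 to 1371 CPM in LLC alone and 1535 to 1666 CPM in LLC with BMSCs for the marrow stromal list. Col1a1, the type I collagen chain that stromal cells produce abundantly, had 2, 4 and 4 counts in the LLC alone libraries and 586, 499 and 477 counts in the co-injected libraries. That is a log2FC of 7.14 (SE 0.22, adjusted p = 3.29e-07, edgeR), at a level of 2 ± 0.208 FPKM in LLC with BMSCs (SD, n = 3). The proteoglycan Dcn rose from 8 counts in each LLC alone library to 506, 526 and 492 counts, or 6.31 ± 0.223 FPKM (SD, n = 3). Col1a2 and the proteoglycan Bgn each rose by 1.54, and Col3a1, already at 41.2 ± 3.82 FPKM in LLC alone, reached 100 ± 1.48 FPKM (SD, n = 3 per group). Lum, Angpt1 and Prrx1 rose by 2.67, 1.84 and 0.65 (adjusted p = 0.000549, 6.2e-05 and 0.000104, edgeR).

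Other genes of the same list fell or had few counts. Runx2 and Foxc1 were lower by small amounts, and Kitl, Snai2 and Twist2 more so, with log2FC of -1.49, -2.18 and -1.30 (adjusted p = 1.2e-05, 2.92e-07 and 2.35e-05, edgeR), the last 2 being transcription factors of mesenchymal cells. Cxcl12, the chemokine that marrow stromal cells are known for, had 0 counts in the LLC alone libraries and 12, 7 and 8 counts in the co-injected libraries. It did not pass the filter, and was at least 2.75-fold higher against a floor of 3 counts per library. Adipoq had at most 3 counts in every library.

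Ratios of counts within a library set the markers against these matrix genes. Per count of Dcn there were 1.22, 1.2 and 1.27 counts of Nt5e in the co-injected libraries, and 19.8, 14.9 and 21.8 in the LLC alone libraries. Per count of Col1a1 there were 3.26, 4.15 and 4.19 counts of Vcam1 in the co-injected libraries, against 150, 59.2 and 85.5 in LLC alone. Vcam1, Nt5e, Ly6a, Alcam and Eng were thus detected in LLC alone libraries in which Col1a1 and Dcn had 2 to 8 counts. Per count of the more abundant Col3a1, the ratios moved in different directions. Vcam1 had 0.0273, 0.0295 and 0.0366 in LLC alone and 0.0767, 0.0859 and 0.0838 in the co-injected libraries. Nt5e, Ly6a and Cd34 were likewise higher per Col3a1 in the co-injected libraries, and Alcam overlapped. Eng, Icam1, Mcam and Lepr were lower, Eng going from 0.423, 0.42 and 0.445 to 0.232, 0.208 and 0.201. Among the co-injected libraries, replicate 1 had the most Col1a1, Eng and Icam1 in FPKM, and the least Vcam1, Nt5e, Ly6a, Cd34 and Lepr. Dcn was highest in replicate 2, at 6.56 FPKM, and Alcam was lowest there, at 7.12 FPKM. Some of these differences were small, as for Nt5e at 3.95, 4.07 and 4.05 FPKM, and the order of the libraries was not tested.

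Carried-over BMSCs were not measured as such, because no library of BMSCs was analysed here. Thy1, a marker of the human culture definition, had at most 2 counts in any co-injected library, and Fap, Dpp4 and Adipoq at most 3. Whether the injected BMSCs carried Thy1 was not measured. Cxcl12 and Cd200 had 0 counts in LLC alone and at most 12 and 10 in the co-injected libraries. Col1a1, Dcn, Bst1, Nt5e, Ly6a, Vcam1 and Cd34 were all higher there. The share of BMSCs, of another cell type or of the LLC cells themselves in these rises was not tested.

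**Figure D5:**
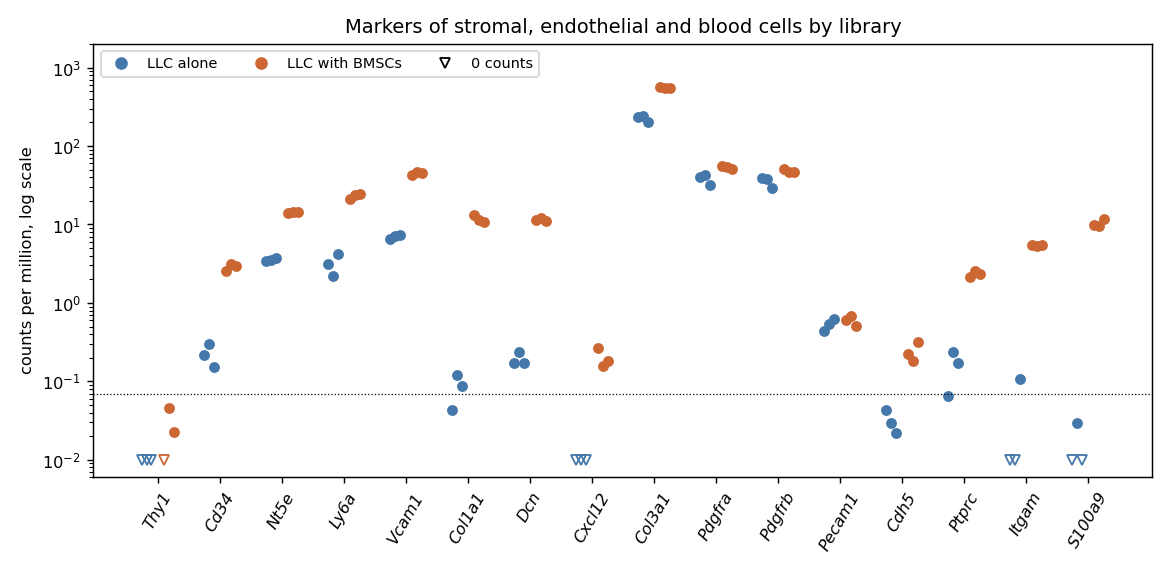
CPM by total counts (y axis, log scale) of 5 markers and of 11 stromal, endothelial and blood cell genes in the 6 libraries, with open triangles at the bottom edge for libraries with 0 counts. The dotted line is the value of 3 counts at the mean depth, and Thy1 stays below it in every library while Col1a1, Dcn and the blood cell genes Ptprc, Itgam and S100a9 pass 1 CPM only in LLC with BMSCs.

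Markers of blood cells moved with the same contrast. Of 20 haematopoietic genes 14 were tested, with 11 called higher, 2 lower and 1 not called. Over all tested genes, 31.5% were called higher and 31.3% lower. Many of the 11, such as Itgam and S100a9, passed the filter through the co-injected libraries, so these counts are a description. With at least 10 counts in every library, 4 were tested, with 2 called higher and 1 lower. The summed level of the list went from 24.8 to 30.3 CPM in LLC alone to 54.2 to 57.9 CPM in LLC with BMSCs. The pan-leukocyte gene Ptprc had 3, 8 and 8 counts in the LLC alone libraries and 96, 112 and 103 counts in the co-injected libraries. The neutrophil genes S100a8 and S100a9 were at least 87.1-fold and at least 140-fold higher against a floor of 3 counts per library, whereas Ly6g, a surface gene of neutrophils, had 1 to 4 counts in LLC alone and 1 to 3 in LLC with BMSCs. Of the macrophage genes, Adgre1 was at least 20.6-fold higher and Csf1r rose by 2.22 on the log2 scale (adjusted p = 3.56e-05, edgeR), while Cd68 was lower, with a log2FC of -0.89 (adjusted p = 0.000501, edgeR). Cd3e, of T cells, had at most 3 counts in every library. The median log2FC of the list was 4.49, or 3.64 with genes at the floor set to their bound. Their part in the rises of Cd34, Vcam1 and Ly6a was not tested.

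Of 18 endothelial and pericyte genes, 7 were tested, with 3 called higher, 1 lower and 3 not called, and a median log2FC of 0.36. Over all tested genes, 31.5% were called higher and 31.3% lower. The genes called higher, Acta2, Notch3 and Rgs5, belong to vessel-wall cells and had log2FC of 4.16, 3.26 and 1.52, and Esam was lower, with -0.85. The sum of the list was 15.3 to 19 CPM in LLC alone and 18 to 19.9 CPM in LLC with BMSCs. Most of it was Egfl7, not called, with means of 12.3 CPM in LLC alone and 11.1 CPM in LLC with BMSCs. The sum therefore says little of the other genes, such as Acta2 with means of 0.0902 and 1.76 CPM. Pecam1, which endothelium carries throughout, was not called, with 20, 18 and 29 counts in the LLC alone libraries and 27, 30 and 22 counts in the co-injected libraries. Cdh5 went from 1 to 2 counts to 8 to 14 counts, and Tie1, Emcn, Sox18, Cldn5 and Kcnj8 had at most 3 in every library. In FPKM, Pecam1 stood at 0.17 ± 0.03 and 0.187 ± 0.0252 (SD, n = 3 per group), beside the endothelial antigens Eng, Mcam and Cd34. Of 16 epithelial and lung genes, 4 were tested, with Krt8 and Krt18 called higher and 2 not called, and a median log2FC of 0.14. Krt18, the usual partner of Krt8, had 2 to 8 counts in LLC alone and 37 to 41 in LLC with BMSCs, a log2FC of 2.91 (adjusted p = 0.000221, edgeR).

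For the 3 markers with the largest fitted changes, the genes with the most similar pattern over the 6 libraries were found by the root mean square difference of centred log2 CPM. For Cd34 these were Atp7b (0.125), Lrrc32 (0.131) and Igfbp3 (0.135), each at 0.05 FPKM or below in LLC alone. For Ly6a they were Tnnt2 (0.157), 2010005H15Rik (0.2) and Tnfrsf9 (0.21), the last going from 3.86 ± 0.492 to 28.3 ± 2.42 FPKM (SD, n = 3 per group). For Vcam1 they were Irgm1 (0.0625), Adam8 (0.0748) and Irf1 (0.0754). Irf1 and Irgm1, a transcription factor and a GTPase induced by interferon, reached 47.3 ± 1.07 and 36.7 ± 1.58 FPKM in the co-injected libraries (SD, n = 3). With 6 libraries in 2 groups, likeness of pattern mainly reflects a similar difference between the groups.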

How the data were processed

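RNA sequencing of sorted LLC cells covered 6 libraries (LLC alone, n = 3, and LLC with BMSCs, n = 3), grouped by the sample titles. For genes and transcripts the authors deposited estimated counts without normalization, some of them fractional, together with FPKM values scaled to transcript length and library total. According to the submitters' processing notes, HISAT, StringTie, Cufflinks and GATK were used and the build was mm8, while their versions, roles and any setting for strand are not given in the sources used here. The paper describes a BGISEQ platform, whereas the labels name Illumina protocols. The symbols of 27 genes, stored as dates, were restored from their identifiers.

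After rounding to whole numbers, the counts were fitted with edgeR 4.0.16 in R 4.3.3 (TMM scaling, default filter on low counts, quasi-likelihood test, Benjamini-Hochberg adjustment, threshold 0.05). The SE was obtained from the log2 fold change and its quasi-likelihood F value. CPM were turned into normalized counts by scaling to the mean effective library size. A group at or under 3 counts in all its libraries was given a bound against 3 counts in place of a fitted value, which covers counting error only. The scripts were tested on simulated data. Estimated counts divide reads that match several genes, so near-identical genes can exchange them, and FPKM shifts when a few abundant genes change.

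The markers and gene lists were chosen with earlier results of these data known. Genes named from a list were, up to 3 in each direction, the largest called changes with at least 1 FPKM in either group, a fixed set of stromal, vascular and blood genes, and genes at or under 3 counts in every library. Bgn, Cspg4, Bst1, Cd200, Lum, Angpt1, Prrx1, Napsa, Ocln, Acta2, Notch3, Rgs5, Egfl7, Runx2, Foxc1, Selp, Tgfbr2, Itga4, Plaur, Ly6g, Adgre1, Csf1r, Ly6f, Cd59a and Cdh1 were named after their values were seen. Some genes of the lists are not reported here. Exon overlaps and chromosomes are from GENCODE M21, and promoters from RefSeq on GRCm38.p6, because the files give no coordinates. The alternatives were DESeq2 1.42.0, other scalings and filters, limma 3.58.1 on log2(FPKM + 1) and log2(FPKM + 0.1), a replicate block, removal of length trends, close pairs summed and leaving out each library.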

Additional observations from a re-analysis of the deposited data

How the results depend on the processing

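Nt5e, Ly6a, Vcam1 and Alcam kept their direction and call under 16 of 16 alternatives and Cd34 under 15 of 15, as it could not be fitted with at least 10 counts in every library. The cause of the changes below was not tested, except that a filter or a left-out library lowers the number of genes or samples. Eng kept its direction and lost its call in 5 of 16, Lepr in 7 of 14 and Icam1 in 1 of 14 (adjusted p = 0.0563, edgeR, close pairs summed). Icam1 summed with Icam4 had a log2 ratio of -0.18. Mcam, never called, had log2 fold changes of -0.0017 with DESeq2, -0.08 with length trends removed, -0.01 with upper-quartile scaling and -0.26 to 0.28 with each library left out, the lowest without LLC alone replicate 3. Markers called higher numbered 5 with close pairs summed, 5 with a log2 fold change of at least 1, and 6 to 8 with each library left out. The replicate numbers did not pair the libraries, since deviations of libraries with the same number correlated by 0.0762, -0.106 and 0.0572. With the replicate block, 8 markers were called higher and 0 lower, and epithelial and lung genes called higher numbered 1 in place of 2. That count was also 1 with at least 10 counts in every library, close pairs summed, either limma setting, a log2 fold change of at least 1 and upper-quartile scaling, and 1 to 2 with each library left out. With no filter on low counts, 5 Ly6 family genes and 5 endothelial and pericyte genes were called higher. With at least 10 counts in every library, fewer genes were tested. Those called higher were 1 of 5 endothelial and pericyte, 2 of 4 haematopoietic and 5 of 14 marrow stromal genes. Those called lower were 1 of 4 Ly6 family genes, 1 of 4 haematopoietic genes and 3 of 18 partners of the markers. On log2(FPKM + 1) and on log2(FPKM + 0.1) alike, a filter on FPKM also left fewer genes for limma to test. It called 0 of 4 Ly6 family genes lower. The 1 endothelial and pericyte gene tested was called neither higher nor lower. Of 8 haematopoietic genes, 6 were called higher and 1 lower. Called lower were 1 of 12 other stromal surface genes and 3 of 17 partners. A log2 fold change of at least 1 left 0 endothelial and pericyte genes lower, 1 haematopoietic gene lower, 3 marrow stromal genes lower, 2 other stromal surface genes higher and 1 lower, and 5 partners higher and 2 lower. Close pairs summed left 3 marrow stromal genes and 3 partners lower. With each library left out in turn, the genes called lower numbered 1 to 2 in the Ly6 family, 3 to 7 in the marrow stromal list (7 without LLC alone replicate 3) and 3 to 5 among the partners. At this depth, markers with under 50 counts in a library, such as Mcam and Lepr, have wide errors.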
